A study of Homo sapiens with 6 samples.

Results

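A set of 9 noncoding RNAs that RNA polymerase III makes, most of them abundant, was followed through RNA-seq libraries of human HEK-293T cells with and without THUMPD1. The members were taken from the deposited gene table by symbol: RN7SK, RN7SL1, RN7SL2, RMRP, RPPH1, VTRNA1-1, VTRNA1-2, VTRNA1-3 and VTRNA2-1. These 9 symbols named 10 of the 58870 rows, because RMRP had 2 rows. Of these, 6 rows, from 5 genes, had at least 1 CPM (count scaled by the library total) in at least 3 libraries and could be tested among 15088 such genes. The other 4 rows were the vault RNAs.

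HEK-293T is an immortalized line from human embryonic kidney. WT cells (genotype Thumpd+/+, 3 libraries) were the parent line, and THUMPD1 KO cells (Thumpd-/-, 3 libraries) were made from it with CRISPR-Cas9 and a pair of guides, sorted as single cells and grown from a clone. Features of that clone and loss of THUMPD1 therefore cannot be told apart. THUMPD1 is the adapter with which the enzyme NAT10 acetylates cytidine in tRNA. Both lines were grown in DMEM without further treatment, and total RNA was depleted of ribosomal RNA and sequenced from stranded, paired-end libraries. Libraries held 32225646 to 44099898 expected counts, the fractional read counts that RSEM assigns to genes. THUMPD1 itself had 77.3, 84.6 and 80.8 CPM in WT and 10.2, 12.0 and 11.0 CPM in KO, with no overlap (log2 fold change -2.87, SE 0.085, limma-voom adjusted p = 3.17e-08). An exact permutation test of its CPM gave p = 0.1, the smallest that 3 against 3 libraries allow. Nothing in the labels says that replicates came from separate cultures, so p values measure the spread between these libraries, which may be technical.

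RNA polymerase III makes tRNA, 5S ribosomal RNA and a set of short structural RNAs that work inside protein particles. 7SK (RN7SK) holds the elongation kinase P-TEFb in an inactive state. 7SL (RN7SL1, RN7SL2) is the scaffold of the signal recognition particle, which brings ribosomes making secreted proteins to the endoplasmic reticulum. RPPH1 is the catalytic RNA of RNase P, which cuts the leader from precursor tRNA, and RMRP is the related RNA of RNase MRP, which acts in ribosomal RNA processing. Vault RNAs are short RNAs found partly in the large vault particle.

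These genes differ in where their promoters lie. Type 3 genes (RN7SK, RMRP, RPPH1) have all essential elements upstream of the start, whereas 7SL and vault genes combine upstream elements with sequence inside the transcribed part. The 120 bases before and 20 bases after each start (GRCh38, strand of the gene) are printed for the 3 type 3 genes, whose core promoters lie just upstream of the start. Capitals mark matches, searched on both strands, with overlapping matches joined. The motif of the polymerase III core promoter that binds TBP was searched as TATAAA, the octamer bound by POU2F1 as ATTTGCAT, and the core of sites for factors of the ATF family as TGACGT.
RN7SK: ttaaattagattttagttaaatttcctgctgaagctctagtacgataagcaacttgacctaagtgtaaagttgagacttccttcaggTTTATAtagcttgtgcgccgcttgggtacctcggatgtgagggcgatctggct
RMRP: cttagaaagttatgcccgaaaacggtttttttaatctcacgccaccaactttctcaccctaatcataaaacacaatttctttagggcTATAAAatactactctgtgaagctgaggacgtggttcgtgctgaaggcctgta
RPPH1: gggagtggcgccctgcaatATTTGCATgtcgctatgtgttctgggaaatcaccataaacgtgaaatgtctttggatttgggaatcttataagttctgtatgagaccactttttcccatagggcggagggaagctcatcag
The windows were chr6:52995501-52995640 for RN7SK (plus strand), chr9:35657998-35658137 for RMRP (minus) and chr14:20343388-20343527 for RPPH1 (minus). RN7SK and RMRP both held TATAAA at positions -33 to -28 from the start, on the opposite strand in RN7SK. RPPH1 held the octamer at -101 to -94, and RMRP held one further upstream, at -217 to -210. In RN7SL1, TGACGT was matched on both strands, at -51 to -46 and -49 to -44, and in RN7SL2 at -50 to -45. RPPH1 also matched TGACGT on both strands, at -221 to -216 and -219 to -214, outside the printed window. Of 35116 RefSeq promoters of GRCh38, from 250 bases before to 50 after a start, 11.5% held TATAAA, 1.77% the octamer and 7.98% TGACGT. A match is a description of the letters only.

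RN7SL1 and RN7SL2 lay on chromosome 14 and were almost the same RNA, which limits how reads can be assigned to each. RN7SL1 has 299 bases (chr14:49586580-49586878, plus strand, GRCh38), and RN7SL2 differed from it by 4 substitutions and a gap of 1 base (98.3% identity over 300 aligned bases). The third copy, RN7SL3, differed from RN7SL1 by 7 substitutions (97.7% identity).

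Together the 10 rows took up 6.45, 7.39 and 7.59% of all counts in WT and 6.20, 6.57 and 6.88% in KO. The means were 7.14 ± 0.608% and 6.55 ± 0.343% (SD, n = 3), and the genotypes overlapped. Of the difference of -0.589 percentage points, RN7SL1 and RN7SL2 together made up -0.588. The difference was -0.935 points without WT replicate 1 and -0.366 points without WT replicate 3. Here a smaller share of a library and less RNA per cell cannot be told apart.

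**Figure D1:**
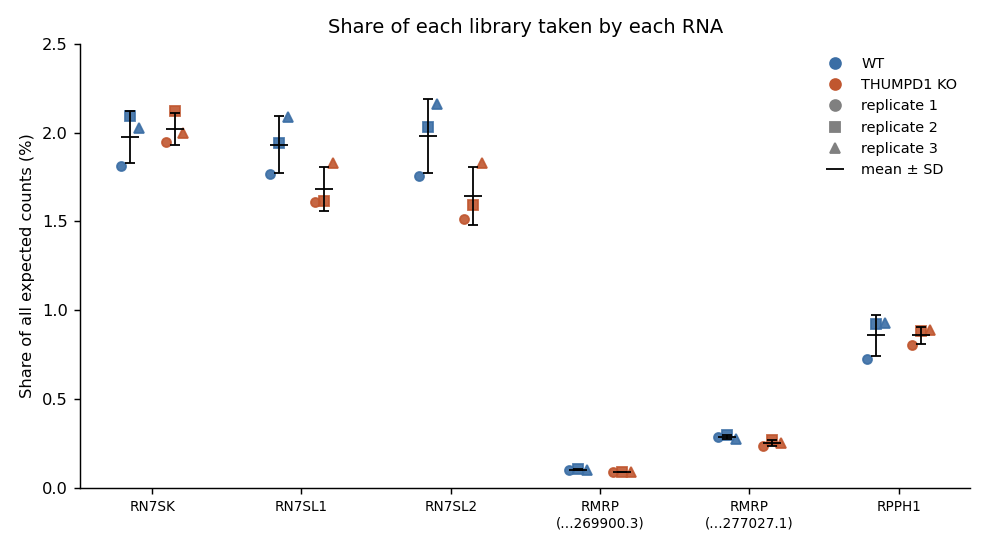
Share of all expected counts (%) in each library for the 6 rows that passed the filter. Points are libraries, with the replicate number as the symbol, and bars are mean ± SD. RN7SK and RPPH1 lie at the same height in both genotypes, and RN7SL1, RN7SL2 and both RMRP rows, named by the end of their Ensembl ID, lie lower in KO, with overlap for the 7SL genes.

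RN7SK (ENSG00000283293.1, chr6:52995621-52995948, plus strand) was among the 3 most abundant rows of every library. It took up 1.81, 2.09 and 2.03% of counts in WT and 1.95, 2.12 and 2.00% in KO. The lowest value was WT replicate 1, and every KO library fell inside or above the WT range. The mean level was 19774 ± 1468 CPM in WT and 20217 ± 891 CPM in KO, so that KO stood at 102% of WT. Its log2 fold change came to 0.06 (95% interval -0.05 to 0.17, limma-voom with quantile normalization, adjusted p = 0.428). With trimmed mean (TMM) scaling it was 0.01 (-0.15 to 0.17, limma-voom adjusted p = 0.950), and with edgeR 0.01 (adjusted p = 0.954).

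RPPH1 (ENSG00000277209.1, chr14:20343075-20343407, minus strand), the other RNA of nearly equal mean, ranked 5 or 6 in each library. Its share was 0.726, 0.920 and 0.931% in WT and 0.802, 0.886 and 0.886% in KO. WT replicate 1 was again the lowest of all 6, and the KO values lay inside the WT range. The means of 8588 ± 1154 and 8579 ± 482 CPM put KO at 99.9% of WT. The sign of the log2 fold change followed the scaling, at 0.09 with quantile normalization (-0.06 to 0.24, limma-voom adjusted p = 0.331), -0.02 with TMM (-0.23 to 0.19, limma-voom adjusted p = 0.904) and -0.03 with edgeR (adjusted p = 0.848). Without WT replicate 1, edgeR called RPPH1 lower, by -0.15 (adjusted p = 0.0221).

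RN7SL1 (ENSG00000276168.1) and RN7SL2 (ENSG00000274012.1, chr14:49862550-49862849, minus strand) had the lowest shares relative to WT among the 6 rows. RN7SL1 took up 1.77, 1.94 and 2.09% in WT and 1.61, 1.61 and 1.83% in KO. RN7SL2 took up 1.75, 2.03 and 2.16% in WT and 1.51, 1.59 and 1.83% in KO. For both, the highest KO library, replicate 3, lay above the lowest WT library, replicate 1, so the genotypes overlapped, but each KO library was below the WT library of the same number.

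Mean levels were 19333 ± 1613 and 16846 ± 1244 CPM for RN7SL1, with KO at 87.1% of WT. They were 19835 ± 2093 and 16440 ± 1651 CPM for RN7SL2, with KO at 82.9%. With quantile normalization neither gene passed the test. The log2 fold change was -0.02 for RN7SL1 (-0.11 to 0.06, limma-voom adjusted p = 0.689) and -0.13 for RN7SL2 (-0.34 to 0.08, limma-voom adjusted p = 0.331).

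That test could register little at these ranks. Quantile normalization gives the gene of a given rank the same value in every library, and RN7SL1 ranked 2 or 3 throughout. After normalization RN7SL1 held only 2 distinct values over 6 libraries (17942 and 18373 CPM), RN7SK 2 (17942 and 20239), RPPH1 2 (7155 and 8715) and RN7SL2 3 (15428, 18373 and 20239). With TMM, which keeps such differences, RN7SL2 fell by 0.29 on the log2 scale (-0.50 to -0.09, limma-voom adjusted p = 0.0415), and RN7SL1 had -0.22 (-0.40 to -0.05, limma-voom adjusted p = 0.0632). With edgeR both were called, RN7SL2 at -0.30 (adjusted p = 0.0234) and RN7SL1 at -0.22 (adjusted p = 0.0296).

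Each of these 7SL calls was lost when any 1 of 4 libraries was left out. TMM calls over all tested genes also fell in those 4 fits, from 3897 to between 2548 and 3464. The RN7SL2 change with TMM stayed between -0.39 and -0.22 whichever library was left out. The RN7SL2 call with TMM was lost without WT replicate 2 (limma-voom adjusted p = 0.104), WT replicate 3 (0.156), KO replicate 1 (0.120) or KO replicate 2 (0.128). RN7SL1 was called with TMM only without WT replicate 1 (-0.30, limma-voom adjusted p = 0.00614). RN7SL2 then had -0.39 with TMM (limma-voom adjusted p = 0.00286), and it was then called with quantile normalization too (-0.28, limma-voom adjusted p = 0.0328). The edgeR call of RN7SL1 was lost without each of the same 4 libraries (adjusted p = 0.0581 to 0.125), as was that of RN7SL2 (0.0517 to 0.0964). Same-numbered libraries of the genotypes deviated together, and with the replicate number as a block TMM scaling gave both 7SL genes as lower, RN7SL2 at -0.29 (limma-voom adjusted p = 0.00106) and RN7SL1 at -0.22 (limma-voom adjusted p = 0.00561). Under DESeq2 RN7SL1 was called (adjusted p = 0.00747) and RN7SL2 was not (adjusted p = 0.0927).

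**Figure D2:**
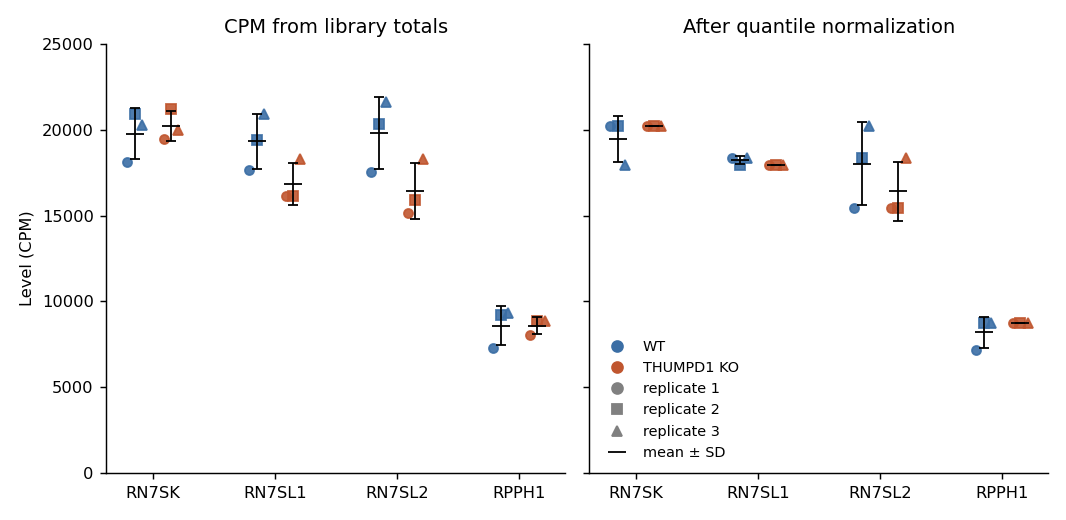
Level (CPM) of the 4 most abundant members in each library, computed from library totals (left) and after quantile normalization (right). Points are libraries, bars are mean ± SD. On the right, RN7SL1, RN7SK and RPPH1 collapse to 2 values each, and the lower KO level of RN7SL1 on the left is no longer seen.

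RMRP had 2 rows, ENSG00000277027.1 (chr9:35657754-35658017, minus strand, GENCODE 44) and ENSG00000269900.3, which is not in GENCODE 44 and for which no position is given here. The second row held 0.335 to 0.372 times as many counts as the first. The first row had 2863, 2955 and 2760 CPM in WT and 2368, 2704 and 2528 CPM in KO. The second had 1000, 1031 and 987 CPM in WT and 882, 906 and 889 CPM in KO. All KO libraries were below all WT libraries in both rows, with KO at 88.6 and 88.7% of WT. They were the only 2 of the 6 tested rows whose genotypes did not overlap, against 42.2% of all tested genes.

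RMRP fell in KO by 0.20 on the log2 scale in the first row (-0.30 to -0.10, limma-voom adjusted p = 0.00881) and by 0.14 in the second (-0.23 to -0.06, limma-voom adjusted p = 0.0165). With TMM the values were -0.20 in both (limma-voom adjusted p = 0.0317 and 0.00859), and with edgeR also -0.20 (adjusted p = 0.0203 and 0.00758). With quantile normalization the first row was called whichever library was left out, and the second row was not called without WT replicate 2 (limma-voom adjusted p = 0.0776) or KO replicate 3 (0.0577). The call of the first row was lost with TMM without WT replicate 2 (limma-voom adjusted p = 0.112), WT replicate 3 (0.0635), KO replicate 1 (0.0785) or KO replicate 3 (0.0937), and with edgeR without WT replicate 2 (0.0716), KO replicate 1 (0.0702) or KO replicate 3 (0.0708). Summed into 1 row, RMRP had -0.14 with quantile normalization (limma-voom adjusted p = 0.0857) and -0.20 with TMM (limma-voom adjusted p = 0.0252).

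In all, 2 of the 6 tested rows passed the threshold with quantile normalization, both of RMRP and both lower, where 26.7% of all tested genes passed it and 13.0% were lower. With TMM, 3 rows passed (25.8% of all tested genes), with edgeR 4 (25.7%), and with TMM and the replicate block 4 (34.5%). With 1 library left out, the number was 1 to 3 with quantile normalization (1 without WT replicate 2 or KO replicate 3). It was 1 to 4 with TMM (1 without WT replicate 2, WT replicate 3 or KO replicate 1). With edgeR it was 1 to 5 (1 without WT replicate 2 or KO replicate 1, and 2 without WT replicate 3 or KO replicate 2). Of the 15088 tested genes, these fits called 2663 to 4245 with quantile normalization, 2548 to 4254 with TMM and 2589 to 4234 with edgeR. Since RMRP gave 2 of the 6 rows and 7SL a near-identical pair, the counts over all 6 libraries rest on RMRP and 7SL alone. The fifth row called with edgeR without WT replicate 1 was RPPH1.

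**Figure D3:**
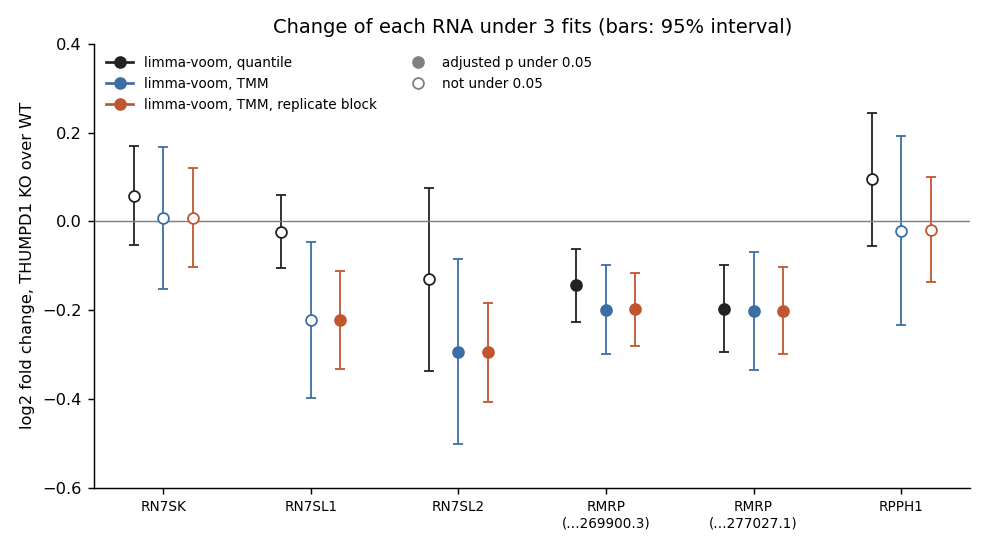
Log2 fold change of each tested row, KO over WT, with its 95% interval, under limma-voom with quantile normalization, with TMM, and with TMM and a replicate block. Filled points have an adjusted p under 0.05. RN7SK and RPPH1 are open in all 3 fits, both RMRP rows are filled in all 3, and RN7SL1 and RN7SL2 move away from 0 once quantile normalization is left out.

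Ratios between these RNAs inside a library do not depend on its scaling. They were chosen after the levels had been seen and are given without a test. By CPM, the genotypes did not overlap in 42.2% of all tested genes, and no such share was computed for ratios. The 7SL counts (RN7SL1 and RN7SL2) were 1.94, 1.90 and 2.10 times those of RN7SK in WT and 1.60, 1.51 and 1.83 times in KO. All WT ratios were above all KO ratios. The ratio of 7SL to RPPH1 did not overlap either, at 4.85, 4.32 and 4.57 in WT and 3.89, 3.62 and 4.13 in KO. Both RMRP rows together stood at 0.213, 0.190 and 0.185 of RN7SK in WT and 0.167, 0.170 and 0.171 in KO, again without overlap. RPPH1 over RN7SK overlapped (0.400, 0.439 and 0.459 in WT, 0.412, 0.418 and 0.443 in KO). Within the RNase P and MRP pair, RPPH1 over both RMRP rows was 1.88, 2.31 and 2.48 in WT and 2.47, 2.45 and 2.59 in KO, and here the genotypes overlapped because of WT replicate 3. RN7SL1 over RN7SL2 ranged from 0.956 to 1.07 and overlapped.

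**Figure D4:**
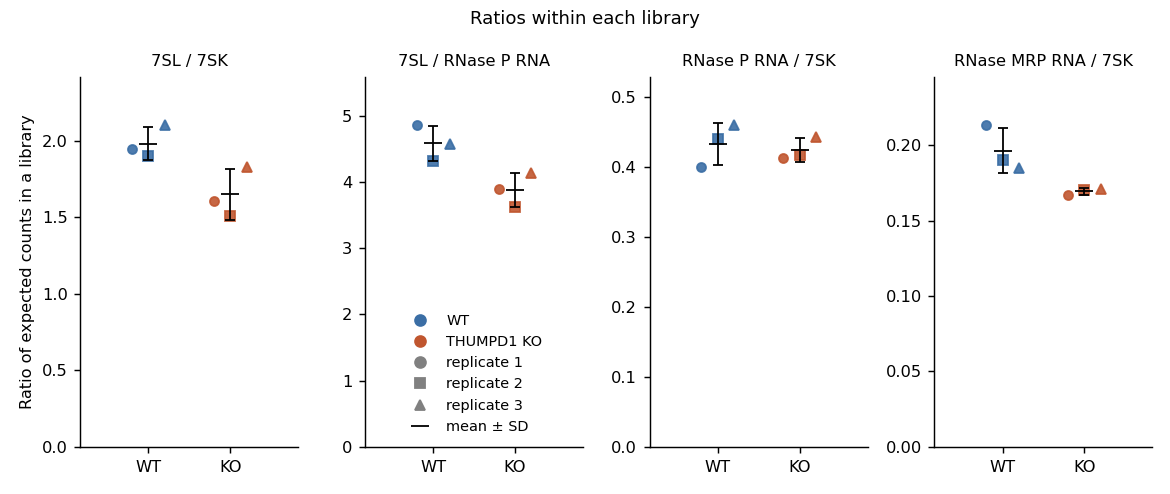
Ratio of expected counts of RNAs within each library, on axes that start at 0. Points are libraries and bars are mean ± SD. The ratios were chosen after the levels were seen. Those of 7SL to 7SK, 7SL to RNase P RNA and RNase MRP RNA to 7SK do not overlap between genotypes, and the ratio of RNase P RNA to 7SK does.

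Across the 6 libraries, levels on the log2(CPM + 0.5) scale were compared between rows. Pearson's r was 0.990 for RN7SL1 and RN7SL2, which share most of their sequence, and 0.910 for both RMRP rows. It was 0.894 for RPPH1 and RN7SK, which share low values in WT replicate 1. RN7SK had an r of 0.13 with RN7SL1 and 0.20 with RN7SL2, and 0.10 and -0.08 with the RMRP rows. RPPH1 had 0.13 and 0.05 with the first and second RMRP row, lower than RN7SL2 had with them (0.62 and 0.71). Among all tested genes, the closest patterns were those of ODC1 (r = 0.998) and CDC123 (0.995) for RN7SK and of TXNDC17 (0.992) and TIMM8B (0.991) for RPPH1. They were MSL1 (0.996) and then RN7SL2 (0.990) for RN7SL1, and BORCS6 (0.991) and PPT2 (0.990) for RN7SL2. For RMRP they were SLC4A1AP (0.992) and ARL6IP1 (0.989) with the first row and CORIN (0.999) and MPHOSPH8 (0.997) with the second. These are the highest values among 15088 genes over 6 libraries and are given as a description.

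Per kilobase of transcript, the order in WT was RN7SL2 (66117 ± 6976 CPM per kb), RN7SL1 (64660 ± 5394), RN7SK (60287 ± 4476), RPPH1 (25790 ± 3466) and the first RMRP row (10830 ± 369). In KO, RN7SK was first (61637 ± 2718), followed by RN7SL1 (56340 ± 4162), RN7SL2 (54801 ± 5505), RPPH1 (25764 ± 1446) and the first RMRP row (9597 ± 637). The second RMRP row had no length here and is left out, so these values understate RMRP as a whole. The first 3 places in WT lay within 1 SD of their neighbours, as did RN7SL1 and RN7SL2 in KO. The steps down to RPPH1 and to the first RMRP row were far larger than the SDs.

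Copies elsewhere in the genome took few of the counts. The table had 677 rows of 7SL pseudogenes, of which 242 were above 0 and 7 passed the filter. They held 0.960% of all 7SL counts, RN7SL1 and RN7SL2 held 97.3%, and RN7SL3 the rest. The most abundant, RN7SL4P, varied widely within each genotype, with 216 ± 108 CPM in WT and 344 ± 378 CPM in KO, of which KO replicate 2 had 34206 counts and KO replicate 1 had 2949. RN7SL5P had 59.8 ± 63.4 and 13.3 ± 7.91 CPM, and RN7SL396P 4.16 ± 0.878 and 1.19 ± 1.65 CPM. The 293 rows of 7SK pseudogenes held 0.0738% of 7SK counts. The leading ones were RN7SKP203 (6.55 ± 1.31 and 7.13 ± 0.899 CPM), RN7SKP71 (0.573 ± 0.199 and 2.24 ± 1.64 CPM) and RN7SKP255 (1.05 ± 0.0527 and 1.08 ± 0.0474 CPM). Summing RN7SL1 with all other 7SL rows gave a log2 fold change of -0.25 with TMM (limma-voom adjusted p = 0.0534) and, since the sum ranked first in each library, 0.00 with quantile normalization.

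Annotated neighbours shared little signal with these RNAs. RN7SL1 lay in an intron of RPS29 on the opposite strand, and RN7SL2 in the lncRNA ENSG00000282885 on its own strand, which had 0.00256% of the counts of RN7SL2. A further row, with the symbol 7SK, lay over RN7SK on its strand and had 0 to 89.6 counts, 0.00588% of those of RN7SK. Another, Vault, lay inside VTRNA2-1 on its strand and had 0 counts in every library. RPPH1 overlapped the lncRNA ENSG00000259001 on the same strand, to which 406 CPM in WT and 409 CPM in KO were assigned (4.73% of the RPPH1 counts), and reads of that pair may have been split between the rows. The nearest protein-coding genes outside were GSTA4 at 317 bases from RN7SK, CCDC107 at 273 bases from RMRP and PARP2 at 208 bases from RPPH1, each on the opposite strand. The sources used here do not say whether counting used the strand.

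Vault RNA was almost absent from these libraries. VTRNA1-1 had 1, 0 and 0 counts in WT and 2, 2 and 0 in KO. VTRNA1-2 had 2, 0 and 0 counts in WT and 3, 0 and 0 in KO. VTRNA1-3 and VTRNA2-1 had 0 counts in all 6 libraries, which allows up to 3 counts in each, or 0.0680 to 0.0931 CPM (counting error only). No difference between genotypes was detectable at these counts.

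The vault RNAs were the shortest of these RNAs, at 89 to 128 bases against 264 to 333 for the others. They are printed in full because their rows, though distinct in sequence, were all near 0. Capitals mark GTTCGA, the core of the B box inside the transcribed part. It was found in each of the 4, and in 0.590% of 251236 GENCODE 44 transcripts within their first 100 bases (transcribed strand).
VTRNA1-1: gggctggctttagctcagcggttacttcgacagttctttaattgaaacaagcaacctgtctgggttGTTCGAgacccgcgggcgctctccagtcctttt
VTRNA1-2: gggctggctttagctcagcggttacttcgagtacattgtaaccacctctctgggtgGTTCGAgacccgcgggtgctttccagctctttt
VTRNA1-3: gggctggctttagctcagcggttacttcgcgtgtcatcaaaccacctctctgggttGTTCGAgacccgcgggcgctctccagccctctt
VTRNA2-1: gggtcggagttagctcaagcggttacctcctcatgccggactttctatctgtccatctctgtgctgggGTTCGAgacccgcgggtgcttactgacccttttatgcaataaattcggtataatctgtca
The first 3 lie on the plus strand of chromosome 5, at chr5:140711275-140711373, chr5:140718925-140719013 and chr5:140726158-140726246, and VTRNA2-1 on its minus strand at chr5:136080470-136080597. Identity was 81.8 to 87.8% among the VTRNA1 genes and 55.7 to 58.5% between these and VTRNA2-1, so reads could be assigned to each. The VTRNA1 genes lay inside the lncRNA ENSG00000292256, which has no row in the table. The upstream regions of the VTRNA1 genes, but not that of VTRNA2-1, held TGACGT at -52 to -47. Other RNAs of 89 to 128 bases differed widely. Of 15 such rows in the lists of other short RNAs, the 5 RNU6 rows (U6, 107 bases) had at most 2.39 counts in any library, and the other 10 had 5 to 271 counts, among them RNY1 (a Y RNA of 113 bases) with 105 to 213.

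Transcripts for the proteins that bind or make these RNAs moved little. Of 49 genes listed by role, 48 were tested and 6 were called (12.5%, against 26.7% of all tested genes), 3 higher and 3 lower. Their median log2 fold change was 0.04, beside 0.02 over all tested genes, and their median absolute change was 0.09 against 0.13. With a replicate block, 15 were called, against 35.1% of all tested genes.

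The exception in size was RPP25, a protein subunit shared by RNase P and RNase MRP. It had 30.7, 32.2 and 34.3 CPM in WT and 10.6, 8.57 and 8.72 CPM in KO. All KO libraries were far below all WT libraries, at 28.7% of the WT mean. RPP25 fell by 1.80 on the log2 scale (SE 0.086, limma-voom adjusted p = 3.99e-07), and it was called in all 22 settings tried.

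A further 3 of the 11 RNase P and MRP proteins were called, by smaller amounts. RPP25L, the paralog of RPP25, fell by 0.19 (24.4 ± 1.20 to 21.3 ± 0.646 CPM, limma-voom adjusted p = 0.0344), and its adjusted p reached 0.126 without WT replicate 3. RPP30 had 36.7, 41.5 and 36.6 CPM in WT and 46.7, 47.1 and 44.3 CPM in KO without overlap, and rose by 0.27 (limma-voom adjusted p = 0.00789). RPP14 rose by 0.16 (87.9 ± 1.09 to 98.6 ± 2.48 CPM, limma-voom adjusted p = 0.0172, and 0.0580 without KO replicate 3). The other 7 did not pass, but 3 of them did with the replicate block, POP1 (-0.13, limma-voom adjusted p = 0.289, and 0.0319 with the block), POP4 (0.17, 0.108, and 0.0419 with the block) and RPP21 (0.23, 0.0729, and 0.0277 with the block). RPP25L and these 3 were named after their values were seen.

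No gene of the 7SK particle and P-TEFb list (0 of 7) passed in limma-voom, with 1 at an unadjusted p under 0.05 and 0 in edgeR and DESeq2. The smallest p values were those of CCNT2, a cyclin of P-TEFb (89.5 ± 3.21 and 99.0 ± 4.38 CPM, log2 fold change 0.14, limma-voom adjusted p = 0.0554, and 0.0152 with the replicate block), HEXIM1, the inhibitor that 7SK brings to the kinase (0.13, 0.132, and 0.0313 with the block), and CDK9, the kinase (0.08, 0.330).

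No gene of the signal recognition particle and its receptor (0 of 8) passed either, with 4 at an unadjusted p under 0.05 and 0 in edgeR and DESeq2. SRP54, the subunit that binds the signal peptide, had 62.1 ± 0.859 and 67.9 ± 2.76 CPM (0.14, limma-voom adjusted p = 0.0504, and 0.0354 with the block). SRP19 had a log2 fold change of 0.15 (adjusted p = 0.0692 in limma-voom, and 0.0193 with the block) and SRP14 one of 0.14 (0.0837). Of the 8 genes, 5 had values above 0 and 3 below, the lowest SRPRA, of the receptor (-0.09, limma-voom adjusted p = 0.130).

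Of the 5 tested genes of the vault list, PARP4, a vault protein, fell by 0.23 (56.8 ± 0.686 to 48.6 ± 2.12 CPM, limma-voom adjusted p = 0.00821) and NSUN2, which methylates vault RNA and tRNA, rose by 0.18 (141 ± 4.19 to 163 ± 8.67 CPM, limma-voom adjusted p = 0.0196, and 0.0801 without KO replicate 3). TEP1 had 0.04 (limma-voom adjusted p = 0.695). The major vault protein gene MVP was below the filter, with 11 to 30.1 counts.

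Factors that recruit polymerase III were not called. For type 3 promoters 0 of 10 passed in limma-voom (2 at an unadjusted p under 0.05, 0 in edgeR and DESeq2), with the smallest p values for BDP1 (0.13, limma-voom adjusted p = 0.0510, and 0.0168 with the block), BRF2 (0.18, 0.0830) and TBP (0.11, 0.164). For the other promoter type 0 of 7 passed (1 at an unadjusted p under 0.05, 0 in edgeR and DESeq2), with GTF3C3 (0.14, limma-voom adjusted p = 0.0836, and 0.0269 with the block), GTF3C2 (0.07, 0.291) and GTF3C4 (0.06, 0.325) in front.

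Other short RNAs were mostly below 0 but rarely called. All 5 tested polymerase III RNAs of 12 listed had log2 fold changes below 0, against 46.4% of all tested genes, with a median of -0.29, and 1 of the 5 was called, against 26.7% of all tested genes. BCYRN1, a neuronal RNA related to 7SL through Alu sequence, had 14.0, 17.3 and 13.1 CPM in WT and 7.03, 9.73 and 11.0 CPM in KO. These did not overlap (-0.70, SE 0.164, limma-voom adjusted p = 0.00975). RN7SL3, the third 7SL copy and so not independent of RN7SL1 and RN7SL2, had 712 ± 94.8 and 580 ± 79.3 CPM with overlap (-0.29, limma-voom adjusted p = 0.0696, and 5.84e-04 with the replicate block). RNY1 had 5.29 ± 0.394 and 4.19 ± 1.08 CPM (-0.40, limma-voom adjusted p = 0.0832).

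Small nuclear RNAs of polymerase II, most of which act in the spliceosome, showed a like median of -0.34 over 13 tested of 18 listed. Of these, 10 were below 0, against 46.4% of all tested genes, and 1 was called, against 26.7%. It was RNU5B-1, at 3.69 ± 0.438 and 2.90 ± 0.221 CPM (-0.41, limma-voom adjusted p = 0.0440, and 0.0733 with TMM). RNU12 had 17.6 ± 0.711 and 13.1 ± 2.92 CPM (-0.44, limma-voom adjusted p = 0.0513, and 0.0251 with TMM), and RNU5E-1 had 2.75 ± 0.372 and 2.28 ± 0.477 CPM (-0.37, limma-voom adjusted p = 0.152). KO replicate 1 was the lowest KO library for most of these RNAs, but not for RNU5B-1 or RNU1-1. RNU4-1 had 30.4, 30.3 and 32.2 CPM in WT and 25.2, 32.8 and 31.1 CPM in KO. RNU2-1 had 43.4, 45.2 and 46.2 CPM in WT and 35.9, 46.2 and 43.4 CPM in KO. The U1 rows, whose copies are near-identical, were split unevenly by the counting, with RNU1-3 at 0 counts in KO replicate 1 and 10837 in WT replicate 2. These U1 rows are therefore not independent in the count below 0. Whether the recovery of short RNA differed between the library sets was not tested.

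**Figure D5:**
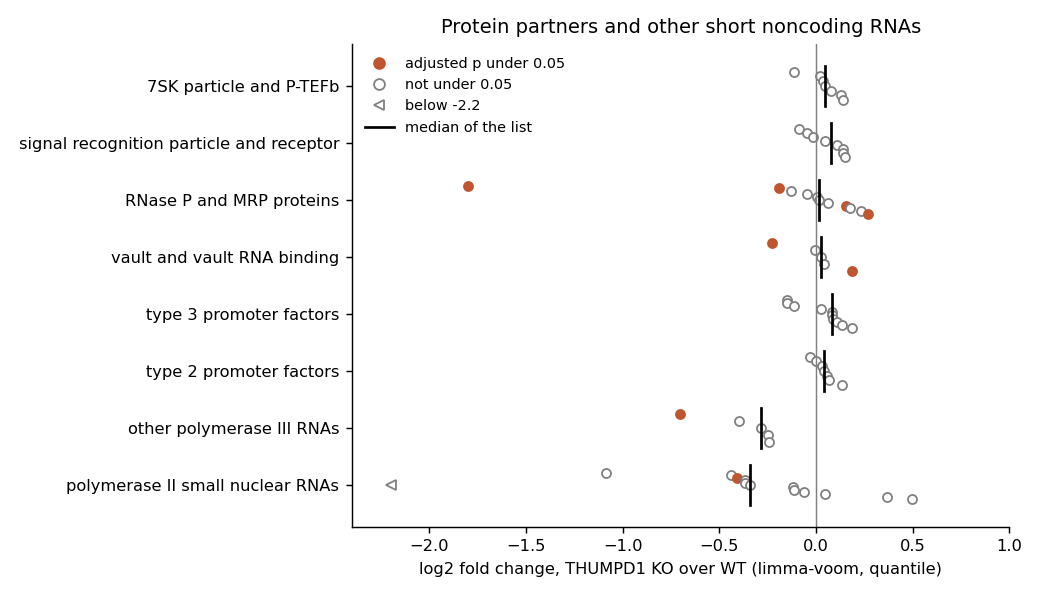
Log2 fold change, KO over WT (limma-voom with quantile normalization), of each tested gene in 6 lists of protein partners and 2 lists of other short noncoding RNAs. Filled points have an adjusted p under 0.05, black lines are list medians, and the triangle is RNU1-3 at -4.20. RPP25 stands apart at -1.80, the protein lists centre near 0, and both RNA lists have medians below 0.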

How the data were processed

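The authors mapped the reads with STAR (GRCh38) and counted them per gene with RSEM. The deposited values are unscaled expected counts, which can be fractional, and the tools' versions were not given in the sources used here. The methods name a later GENCODE release than 44, although the IDs appear older. Of the 58870 IDs, 58472 (99.3%) were found in GENCODE 44, from which positions and lengths were taken; sequences were read from the hg38 genome. The 7SL sequences are not reported here.

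Groups and replicate numbers came from the sample labels. Members and lists were chosen with earlier results of these data known. The study filtered genes under 1 CPM without naming a number of libraries. Here 3 or more of the 6 libraries had to reach it, and the 15088 such genes entered limma-voom (limma 3.58.1, R 4.3.3) after quantile normalization, as in the study. The model held genotype alone, and tests were two-sided with Benjamini-Hochberg adjustment over all genes and a threshold of 0.05. TMM scaling, library sizes alone, edgeR 4.0.16 quasi-likelihood tests, DESeq2 1.42.0 (on rounded counts), quality weights, other filters, a replicate block and leaving out each library were tried. For members among the top 50 ranks of any library, TMM and edgeR values are given beside the quantile ones. CPM came from deposited expected counts over library totals, as mean ± SD. All members were named, with THUMPD1, at most 3 genes of each list with the smallest adjusted p, the 3 highest pseudogenes of each family and the 2 genes most correlated with each member. Other genes named (RPP25L, POP1, POP4, RPP21, SRPRA, MVP, RNU1-1, RNU1-3, RNU2-1, RNU4-1 and the RNU6 rows) were chosen after values were seen.

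Replicate numbers were taken to pair the libraries, since deviations from the genotype means correlated over the tested genes for each same-numbered pair (r = 0.209, 0.171 and 0.140, against -0.179 to 0.0458 for different numbers).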

Additional observations from a re-analysis of the deposited data

How the results depend on the processing

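7SL calls depended on scaling and on single libraries. Both RMRP rows were called under every scaling tried with all 6 libraries, but each lost its call in some fits with 1 library left out. Their sum was called with TMM and not with quantile normalization. The vault RNAs had 3 counts or fewer in each library, for reasons that were not tested. RN7SL2 (-0.13 in the quantile fit) passed the threshold with TMM (-0.29), library sizes alone (-0.27), members left out of the totals (-0.30), edgeR (-0.30) and overlapping rows summed with TMM (-0.29), and ranged from -0.28 to -0.031 with 1 library left out. RN7SL1 (-0.02) passed with edgeR (-0.22) and DESeq2 (-0.22). With the replicate block, the pairing gave RN7SL2 -0.29 and RN7SL1 -0.22 with TMM, and -0.30 and -0.22 with edgeR, and it changed no call of RN7SK, RPPH1 or RMRP. The second RMRP row ranged from -0.16 to -0.13 with 1 library left out, and the summed RMRP row had -0.14. RPPH1 (0.09) changed sign with TMM (-0.020), members left out of the totals (-0.024), DESeq2 (-0.027), edgeR (-0.028), TMM with copies (-0.020) or overlapping rows (-0.019) summed, and the replicate block with TMM (-0.018) or edgeR (-0.019). With 1 library left out, RPPH1 ranged from -0.15 to 0.050 with TMM and from -0.15 to 0.041 with edgeR, and RN7SK from -0.067 to 0.052 with TMM and from -0.066 to 0.050 with edgeR. The number of member rows called was 2 in the quantile fit, where 4025 of all 15088 tested genes were called. It was 4 with edgeR (3874 of all genes), 4 with the block and TMM (5199) and 4 with the block and edgeR (5133). At an adjusted p under 0.01 it was 1 (2083). With overlapping rows summed, RMRP being 1 row, it was 0 with quantile normalization (4043 of 15085) and 2 with TMM (3897). With 1 library left out it was 1 to 3 (2663 to 4245), 1 to 4 with TMM (2548 to 4254) and 1 to 5 with edgeR (2589 to 4234). The summed share of the members differed by -0.935 to -0.366 points with 1 library left out. Partner genes called were 6 in the quantile fit (4025 of all 15088 tested genes) and 12 with quality weights (5510). They were 15 with the replicate block (5297), 11 with the block and TMM (5199) and 11 with the block and edgeR (5133). Other short RNAs called were 2 in the quantile fit, 1 without a CPM filter (3200 of 31730 genes) and 6 with quality weights. They were 4 with the block under quantile, TMM and edgeR alike, and 1 to 3 with 1 library left out. Calls over all tested genes thus also rose with quality weights and with the block. Reasons for these shifts were not tested, except that quantile normalization ties the top ranks by construction.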
